A study of Mus musculus with 28 samples.

Results

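Peaks of 6 histone marks were described at the loci of 6 genes of sugar uptake and glycolysis in mouse lung tumours, namely Gapdh, Pgam1, Ldha, Slc2a1, Eno1 and Aldoa. The loci were fixed windows of the mm9 genome around the genes, 205 kb in all, and every peak that shared at least 1 bp with a window was taken. The windows held 397 of the 950445 peaks in the 24 peak lists. They comprised 53 H3K4me3, 115 H3K27ac, 170 H3K4me1, 53 H3K79me2, 4 H3K27me3 and 2 H3K9me3 peaks. The windows were chr6:125105000-125125000 for Gapdh, chr19:41975000-42000000 for Pgam1, chr7:54085000-54125000 for Ldha, chr4:118770000-118820000 for Slc2a1, chr4:149595000-149635000 for Eno1 and chr7:133925000-133955000 for Aldoa.

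The marks were mapped by ChIP-seq, which uses an antibody against a modified histone to enrich the DNA it sits on, in bulk lung tumour tissue with 4 libraries per mark. Tumours arose in mice with the K-RasLSL-G12D allele, a mutant K-Ras behind a stop cassette that Cre removes, alone or together with Mll4fl/fl, floxed alleles of a histone H3K4 methyltransferase gene. All mice received Ad-CMV-Cre, an adenovirus that expresses Cre from a CMV promoter and so in any cell it infects. The labels name these 2 tumour types but tie no library to either. The names of the deposited files seem to carry the type, but no sample label backs that reading and it was not used. The libraries are therefore described by mark and replicate number, and the spread over 4 libraries can include a difference between tumour types. No source used here says that the 4 libraries of a mark came from separate animals. In bulk tissue, fewer cells carrying a mark and less of the mark per cell cannot be told apart. No annotation of mm9 was used here, so the lung label was not checked against marker genes.

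Glycolysis turns glucose into pyruvate in the cytosol, and many tumours take up much glucose and release lactate even when oxygen is present. Slc2a1 encodes the glucose transporter GLUT1 in the cell membrane, Aldoa an aldolase that splits fructose bisphosphate, and Gapdh the dehydrogenase of glyceraldehyde phosphate. Pgam1 encodes a phosphoglycerate mutase, Eno1 the enolase that makes phosphoenolpyruvate, and Ldha a lactate dehydrogenase subunit that turns pyruvate into lactate. H3K4me3 is known from active promoters, H3K27ac from active promoters and enhancers, H3K4me1 from enhancers and promoter flanks, and H3K79me2 from the first part of transcribed genes. H3K27me3 and H3K9me3 are known from repressed chromatin. Transcription of several of these genes is known to respond to the hypoxia-inducible factor and to MYC, whose binding motifs overlap in their letters.

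Promoter sequences are shown because each window held an H3K4me3 region and to show where these letters stand. RefSeq promoters on GRCm38.p6, each from 250 bases before to 50 after a gene's start, matched all 6 genes with 11 starts. They lie on another build than the peaks, and no peak was placed on them. The motif ACGTG, the core of the hypoxia response element, was searched on both strands. The longer motif CACGTG, the E-box that MYC binds, contains it and reads the same on both strands. The core promoter motif TATAAA was searched on both strands too. Below, each match to ACGTG on either strand is in capitals. The first is Ldha at chr7:46845554-46845853 on the plus strand, followed by Slc2a1 at chr4:119108495-119108794 on the plus strand, Pgam1 at chr19:41911621-41911920 on the plus strand and Gapdh at chr6:125165724-125166023 on the minus strand.
Ldha: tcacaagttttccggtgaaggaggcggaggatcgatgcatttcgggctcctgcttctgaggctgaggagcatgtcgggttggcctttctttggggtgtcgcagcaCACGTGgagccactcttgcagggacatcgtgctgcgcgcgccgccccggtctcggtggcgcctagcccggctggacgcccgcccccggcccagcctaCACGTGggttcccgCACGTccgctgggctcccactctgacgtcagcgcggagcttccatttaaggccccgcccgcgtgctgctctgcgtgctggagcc
Slc2a1: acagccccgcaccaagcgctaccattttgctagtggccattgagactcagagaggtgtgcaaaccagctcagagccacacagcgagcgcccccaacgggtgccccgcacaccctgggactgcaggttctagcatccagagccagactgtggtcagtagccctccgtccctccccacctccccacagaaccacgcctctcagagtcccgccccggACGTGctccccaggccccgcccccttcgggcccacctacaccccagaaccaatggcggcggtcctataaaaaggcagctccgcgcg
Pgam1: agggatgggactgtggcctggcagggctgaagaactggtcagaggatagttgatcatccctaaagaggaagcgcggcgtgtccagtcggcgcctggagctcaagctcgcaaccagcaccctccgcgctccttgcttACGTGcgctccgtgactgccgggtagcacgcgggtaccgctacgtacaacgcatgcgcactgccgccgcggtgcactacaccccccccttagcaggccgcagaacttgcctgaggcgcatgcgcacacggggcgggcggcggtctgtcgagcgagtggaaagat
Gapdh: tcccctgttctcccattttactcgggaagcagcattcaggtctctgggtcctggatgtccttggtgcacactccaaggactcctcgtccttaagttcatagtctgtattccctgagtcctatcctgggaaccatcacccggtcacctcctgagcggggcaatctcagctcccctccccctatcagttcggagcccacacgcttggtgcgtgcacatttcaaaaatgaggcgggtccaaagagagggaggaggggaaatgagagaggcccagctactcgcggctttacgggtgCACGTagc

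ACGTG was found at a start of 5 of the 6 genes, 83.3%, compared with 21.8% of all 27025 genes in the promoter table. By promoter, 6 of 11 held it, compared with 19.6% of all 32851, and 2 of the 6 were overlapping Aldoa starts that share 1 match. The first start of Ldha held 5 matches in 3 stretches, of which 2 stretches were the full CACGTG. No start of another of the 6 genes held CACGTG, which 8.09% of all genes had. TATAAA was found at Slc2a1 alone among the 6, and at 15.7% of all genes. The 3 Eno1 starts held none of the motifs. A match is a description of letters in a window of 300 bases, not a binding site.

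With every deposited peak counted, each window carried H3K27ac, H3K4me1 and H3K79me2 peaks in all 4 libraries of the mark. Over the genome cut into 50 kb tiles, as long as the longest window, 13.7% of tiles held H3K27ac, 17.2% H3K4me1 and 17.0% H3K79me2 peaks in all 4 libraries. Among tiles with H3K4me3 in at least 3 libraries, which are closer to windows around active genes, the shares were 55.4% for H3K27ac, 59.3% for H3K4me1 and 63.4% for H3K79me2. H3K4me3 itself was found in all 4 libraries at Gapdh, Pgam1, Ldha and Aldoa, 4 of 6 windows, compared with 9.58% of all tiles and 48.9% of the tiles that had it in at least 3, so that the count is not far from the latter. All 6 windows held it in at least 3 libraries, compared with 19.6% of tiles. Slc2a1 and Eno1 lacked an H3K4me3 peak in replicate 1 alone, and without that library all 6 windows had H3K4me3 in every library. The counts depended on how strict the list was. When each list was cut to its 5224 best-scored peaks, H3K4me3 was in all 4 libraries at 3 windows, H3K27ac and H3K4me1 at 1 each and H3K79me2 at 0. The shares of tiles were then 3.75%, 1.56%, 1.59% and 4.20%. With scores of at least 100, H3K4me3 was in all 4 libraries at 1 window, while H3K27ac, H3K4me1 and H3K79me2 were at 5 each. The shares of tiles were then 3.82%, 6.54%, 7.32% and 14.7%.

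Peaks of the repressive marks were few in the windows, 6 in all. No window had an H3K27me3 peak in all 4 libraries, compared with 7.63% of tiles, and none had an H3K9me3 peak in all 4, compared with 1.85%. H3K27me3 had no peak in any library at Gapdh, Pgam1, Ldha and Aldoa, 4 of 6 windows, while 55.5% of the tiles with H3K4me3 in at least 3 libraries had none either. H3K9me3 had no peak in 5 windows, all but Slc2a1, and 67.1% of those tiles had none. The windows were thus near the background of other H3K4me3-bearing tiles in their lack of repressive peaks, and most windows are shorter than a tile.

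**Figure D1:**
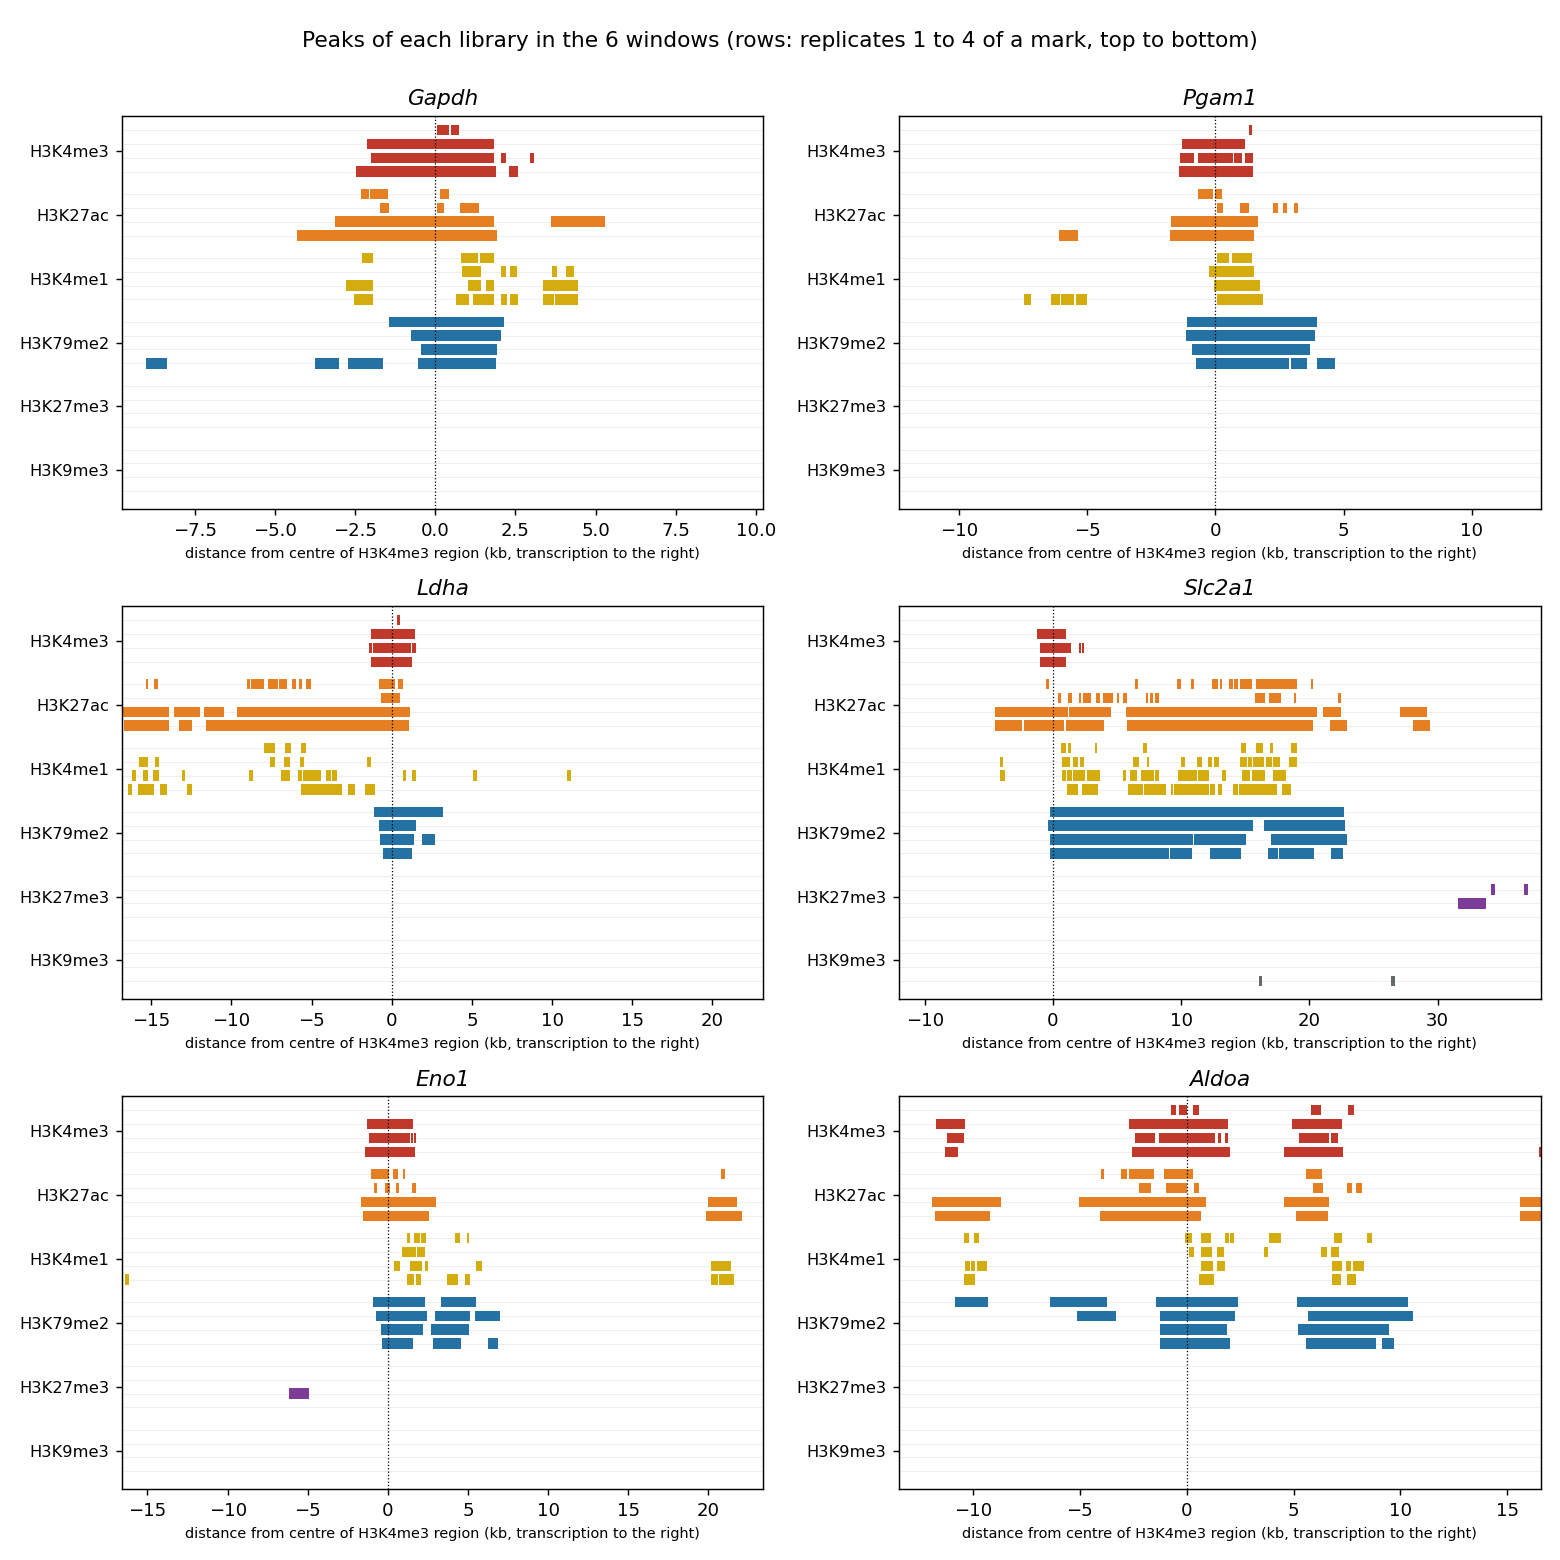
Peaks of the 24 libraries in the 6 windows, with the distance in kb from the centre of the gene's H3K4me3 region on the x axis, transcription to the right, and 1 row per library, coloured by mark. H3K4me3 bars of replicates 2 to 4 span 0 in every window because 0 was set from the H3K4me3 peaks themselves. H3K79me2 bars run to the right over 20 kb at Slc2a1, and H3K27ac bars run to the left at Ldha.

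By mean share of the 205 kb in peaks, H3K79me2 and H3K27ac came first, then H3K4me1 and H3K4me3, and the libraries overlapped within each of these pairs of marks. H3K27ac libraries also overlapped those of H3K4me1 and H3K4me3. H3K79me2 covered 26.7%, 24.2%, 21.2% and 20.0% in replicates 1 to 4, a mean of 23.0% ± 3.0 (SD, n = 4). H3K27ac covered 9.14%, 6.38%, 35.4% and 33.1%, a mean of 21.0% ± 15.4 (SD, n = 4). Replicates 3 and 4 of H3K27ac lay far above replicates 1 and 2, so the mean stood between them and described no library. H3K4me1 covered 5.19%, 7.51%, 12.6% and 14.8%, a mean of 10.0% ± 4.44 (SD, n = 4). H3K4me3 covered 1.23%, 11.0%, 10.5% and 11.3%, a mean of 8.53% ± 4.87 (SD, n = 4), with replicate 1 alone low. H3K27me3 covered 0%, 0.279%, 1.7% and 0%, a mean of 0.495% ± 0.814 (SD, n = 4) that was 0.0929% without replicate 3. H3K9me3 covered 0.307% in replicate 4 and 0% in the others, a mean of 0.0768% ± 0.154 (SD, n = 4) that rests on that library.

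H3K79me2 exceeded H3K27me3 by 22.5 percentage points, H3K27ac by 20.5 and H3K4me1 by 9.53, and each active-mark library was above each H3K27me3 library in 16 of 16 pairs. H3K4me3 exceeded H3K27me3 by 8.03 points, in 15 of 16 pairs. The pair that went the other way was H3K4me3 replicate 1 with H3K27me3 replicate 3. H3K79me2 covered 14.5 points more than H3K4me3, in 16 of 16 pairs. These differences depended on the number of peaks per list. With the 5224 best-scored peaks of every library, H3K79me2 exceeded H3K27me3 by 6.2 points, H3K27ac by 10.1, H3K4me3 by 6.17 and H3K4me1 by 2.27. The difference of H3K79me2 from H3K4me3 was then 0.0322 points, and H3K27ac had the highest share. With scores of at least 100, H3K4me1 exceeded H3K27me3 by 5.73 points. H3K27me3 and H3K9me3 overlapped, with H3K27me3 the higher in 7 of 16 pairs. H3K9me3 was the higher only in pairs with its replicate 4, and the remaining pairs were ties at 0%.

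**Figure D2:**
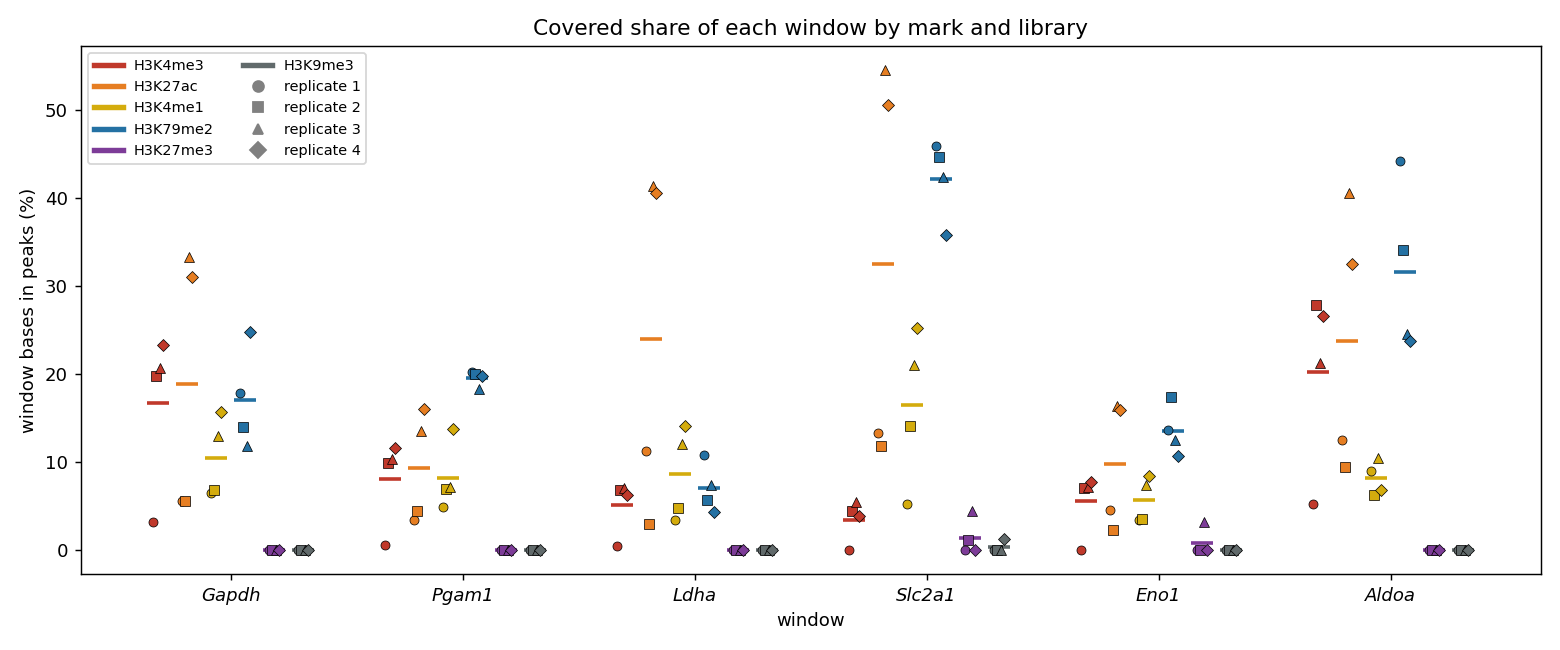
Percent of each window's bases that lay in peaks, by window on the x axis and by mark in colour, with 1 symbol per library and a line at the mean of 4. Slc2a1 and Aldoa have the highest H3K79me2 means at 42.2% and 31.7%, and the H3K27ac symbols of replicates 3 and 4 lie above those of replicates 1 and 2 in all 6 windows.

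The lists differed in length and width, so each window share was set against the share of the whole genome in peaks of the same library. H3K4me3 covered the windows 9.37 times as densely as the genome (geometric mean of 4 libraries), H3K27ac 8.48 times, H3K4me1 7.5 times and H3K79me2 4.28 times. On the log2 scale the ratios were 3.23 ± 0.11 for H3K4me3, 3.08 ± 0.32 for H3K27ac, 2.91 ± 0.15 for H3K4me1 and 2.10 ± 0.16 for H3K79me2 (SD, n = 4). In H3K27ac the genome share was 0.777% and 0.860% in replicates 1 and 2 and 4.49% and 4.40% in replicates 3 and 4, so the large spread of its window share was also found across the genome. The low H3K4me3 replicate 1 had a genome share of 0.123% and a ratio of 9.99, within the range of the other 3 libraries. The log2 ratio of H3K4me3 was above that of H3K4me1 in 16 of 16 pairs, by 0.32, but with peaks scored 100 or more the difference was -0.02. It was 0.65 with the 5224 best-scored peaks and 0.61 with each window weighted equally. H3K79me2 lay below H3K27ac by 0.99 in all 16 pairs, with 5.38% ± 0.666 of the genome in H3K79me2 peaks (SD, n = 4). With the 5224 best-scored peaks that difference was -2.21. The part of depth, list length and peak width in these differences was not tested.

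**Figure D3:**
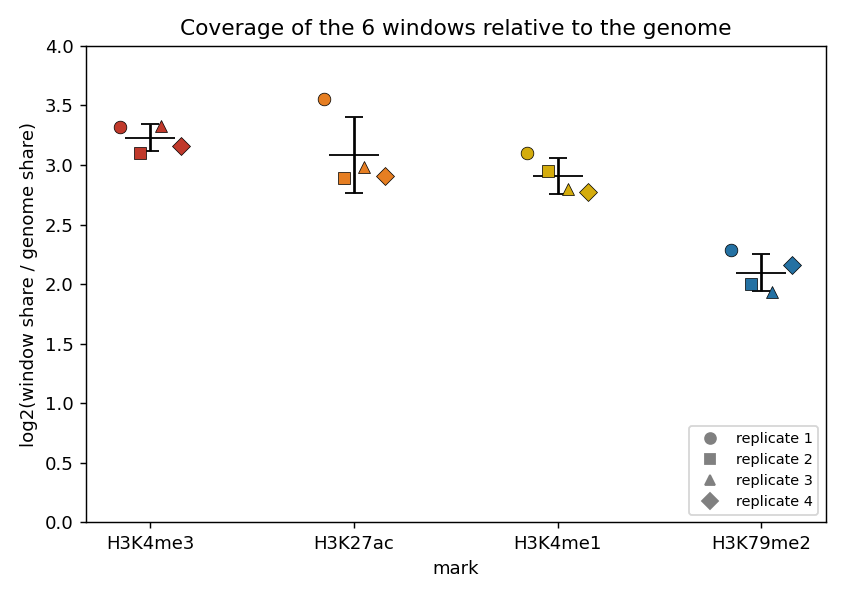
The log2 of window share over genome share for the 4 active marks, with 1 symbol per library, a horizontal line at the mean and bars of 1 SD (n = 4). H3K79me2 lies lowest at 2.10, and H3K27ac replicate 1 stands above the other H3K27ac libraries at 3.56.

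Slc2a1, the glucose transporter, had the broadest marking by mean kb for H3K79me2, H3K27ac and H3K4me1, in the longest of the 6 windows. In H3K4me1 replicate 1, Aldoa was slightly above it, with 2.71 kb compared with 2.643. H3K79me2 covered 22.97, 22.34, 21.22 and 17.92 kb in replicates 1 to 4, so all 4 libraries were alike. In replicate 1 it was a single peak of 22966 bp at chr4:118781723-118804688, longer than 97.6% of the peaks of its list. The longest stretch in all 4 libraries was chr4:118781770-118790989, 9220 bp long. The replicate 4 peak there scored 3100, above 98.7% of its list, while the replicate 1 peak scored 366. The score is the authors' value for a peak and was used only to rank peaks within a list.

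H3K27ac at Slc2a1 covered 6.638 and 5.896 kb in replicates 1 and 2 and 27.29 and 25.30 kb in replicates 3 and 4, the latter pair with peaks of 14851 and 14453 bp. These ranked 447 of 40049 and 481 of 43235 by width in their lists. All 4 libraries shared a 1008 bp stretch at chr4:118798792-118799799, which the best-scored H3K27ac peak of each library covered. In replicate 1 that peak scored 762 and was above 99.3% of its list, and in replicate 2 it scored 294 and was above 97.6%. The same site was thus marked in every library, while the width of the peak around it differed. H3K4me1 had 57 peaks at Slc2a1, with 2.643, 7.084, 10.55 and 12.63 kb covered in replicates 1 to 4. Its longest stretch in all 4 libraries was chr4:118797785-118798323, 539 bp long, close to the shared H3K27ac stretch.

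H3K4me3 at Slc2a1 was compact, with 0, 2.25, 2.759 and 1.972 kb covered. Its region shared by replicates 2, 3 and 4 was chr4:118780991-118782962. Of the 6 repressive peaks in the windows, 5 lay here. H3K27me3 had peaks of 294 and 277 bp in replicate 2 and 1 of 2210 bp in replicate 3, the latter at chr4:118813579-118815788 and beyond the end of H3K79me2. H3K9me3 had peaks of 293 and 337 bp in replicate 4. In the RefSeq gene order of GRCm38.p6, Slc2a1 lies between Lao1 and Zfp691, and without coordinates on mm9 the H3K27me3 peaks were not assigned to a gene.

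Aldoa, the aldolase, had the widest H3K4me3 coverage, at 20.2% ± 10.4 of its window (SD, n = 4), with 1.573, 8.35, 6.38 and 7.983 kb in replicates 1 to 4. Replicate 1 was low and the others were alike. The window held separate H3K4me3 regions rather than one. The longest region found in at least 3 libraries was chr7:133940238-133942872. Others lay 3.95 kb downstream of it, 1397 bp long, and 9.36 kb upstream of it, 521 bp long. The RefSeq gene order puts Ppp4c and Tlcd3b next to Aldoa, and the regions were not assigned among these genes.

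H3K79me2 at Aldoa covered 13.26, 10.24, 7.388 and 7.121 kb, a mean of 31.7% ± 9.58 (SD, n = 4), and it lay over the central region in all 4 libraries, which covered 98.2% ± 1.31 of it. A second stretch shared by all 4, the longest, was chr7:133932685-133935858. Upstream H3K79me2 peaks were found in replicates 1 and 2 alone. H3K27ac covered 3.752, 2.834, 12.18 and 9.757 kb, and H3K4me1 2.71, 1.889, 3.151 and 2.057 kb. The best-scored H3K27ac peak of replicate 1, at chr7:133943071-133944260, scored 897 and was above 99.6% of its list. H3K4me1 was the most even of the 6 windows here relative to its mean, at 8.17% ± 1.95 (SD, n = 4).

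Gapdh, the glyceraldehyde phosphate dehydrogenase, had active marks around a single H3K4me3 region, with further peaks outside it. H3K4me3 covered 0.635, 3.966, 4.131 and 4.674 kb in replicates 1 to 4, with the anchor region at chr6:125113414-125117065. In replicate 3 this was a peak of 3652 bp, longer than 98.7% of its list. H3K79me2 covered 3.579, 2.795, 2.375 and 4.956 kb, and all 4 libraries shared chr6:125113341-125115692. H3K27ac covered 1.119, 1.13, 6.663 and 6.222 kb, and H3K4me1 1.298, 1.363, 2.591 and 3.146 kb. H3K4me1 stretches found in 3 libraries lay 1.8 to 2.25 kb downstream of that region, and replicate 4 of H3K79me2 had separate upstream peaks of 759 and 676 bp. H3K4me1 covered 22.3% ± 6.24 of the H3K4me3 region (SD, n = 4), while H3K79me2 covered 73.0% ± 11.4 of it (SD, n = 4). Neither repressive mark had a peak.

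Pgam1, the phosphoglycerate mutase, had the most even H3K79me2 of the 6 windows. It covered 5.066, 5.021, 4.593 and 4.949 kb, a mean of 19.6% ± 0.860 (SD, n = 4), and spanned the whole H3K4me3 region chr19:41986633-41988021 in every library. H3K4me3 itself covered 0.137, 2.469, 2.584 and 2.893 kb. The replicate 1 peak was 137 bp long and lay outside the region that the other libraries shared. H3K27ac covered 0.853, 1.123, 3.397 and 4.003 kb.

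H3K4me1 at Pgam1 was strong for its lists. The best-scored peak was above 97.1%, 99.7%, 97.8% and 94.9% of its list in replicates 1 to 4, and in replicate 2 it ranked 213 of 81432. All 4 peaks overlapped at chr19:41987986-41988741, a stretch of 756 bp that lay mostly downstream of the H3K4me3 region. H3K4me3 peaks of replicates 2 and 4 ran on to 41988477 and 41988782, however, and covered much of that stretch. H3K4me1 covered 51.2% ± 12.9 of the H3K4me3 region (SD, n = 4), which at 1389 bp was the shortest of the 6. This was more than at any of the other 5 loci, where the means ran from 3.80% at Ldha to 26.2% at Aldoa. In replicates 1 and 2 the Ldha share was 0%. Of the bases in an H3K4me1 peak of any library, 32.8% were in all 4, compared with 8.05% over the 6 windows and 5.69% over the genome.

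Eno1, the enolase, had H3K4me3 in 0, 2.851, 2.891 and 3.121 kb of replicates 1 to 4, with the shared region chr4:149610382-149612758. H3K79me2 covered 5.471, 6.977, 4.996 and 4.28 kb, and H3K27ac 1.848, 0.916, 6.541 and 6.391 kb. H3K4me1 covered 1.376, 1.412, 2.967 and 3.359 kb, with its longest stretch in all 4 libraries downstream of H3K4me3 at chr4:149613390-149613584. A second H3K27ac site lay 19.6 kb downstream of the H3K4me3 region, at chr4:149632351-149632621 in replicates 1, 3 and 4. Peaks there were 271, 1846 and 2242 bp long, and H3K4me1 peaks lay at the same place in replicates 3 and 4. No H3K4me3 or H3K79me2 peak was found there in any library. An H3K27me3 peak of 1275 bp was found in replicate 3 alone, at chr4:149605369-149606643.

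Ldha, the lactate dehydrogenase subunit, had the smallest share of its window in H3K79me2 in each of the 4 libraries, a mean of 7.06% ± 2.78 (SD, n = 4). The covered lengths were 4.322, 2.274, 2.948 and 1.755 kb, and in replicates 1 and 3 Gapdh had fewer kb, 3.579 and 2.375. H3K4me3 covered 0.183, 2.754, 2.82 and 2.529 kb, with its region at chr7:54100613-54103006. H3K27ac covered 4.521, 1.173, 16.57 and 16.22 kb, with single peaks of 10835 and 11337 bp in replicates 3 and 4. The longer of 2 stretches shared by all 4 libraries was chr7:54101166-54102004, within the H3K4me3 region. H3K27ac thus marked the H3K4me3 region in every library. Single peaks ran far beyond it in replicates 3 and 4, and replicate 1 had separate peaks beyond it.

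At Ldha the H3K27ac beyond the H3K4me3 region lay upstream of it, with 3.207, 0, 14.22 and 13.95 kb in replicates 1 to 4 and none downstream. H3K4me1 covered 1.379, 1.916, 3.905 and 5.472 kb upstream, and 0.753 kb downstream in replicate 3 alone. It covered 3.80% ± 4.41 of the H3K4me3 region (SD, n = 4), with 0%, 0%, 8.145% and 7.059% in replicates 1 to 4. H3K27ac sites shared by at least 3 libraries lay between 3.87 and 14.0 kb upstream. Among them was an 812 bp stretch 6.77 kb upstream. The H3K27ac library numbered 2 had no peak on that side. In the RefSeq gene order Ldha lies between Gtf2h1 and Ldhc, and the upstream sites were not assigned to a gene.

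The side of the H3K4me3 region on which each mark lay was compared over the 6 genes, with the direction of transcription from RefSeq. The region used for each gene was the longest stretch covered in at least 3 H3K4me3 libraries, a choice made after the values were seen. H3K79me2 covered more downstream than upstream in 23 of 24 gene and library pairs, and in 19 of 20 without Slc2a1. The exception was Gapdh in replicate 4, with 2.338 kb upstream and 0.073 kb downstream. The 4 libraries of a gene describe 1 locus, so these pairs are not independent. All 6 windows also held more length downstream than upstream, from 8.413 and 7.935 kb at Gapdh to 37.04 and 10.99 kb at Slc2a1. The part of this in the count was not tested. The summed length of H3K79me2 peaks downstream was 19.9 ± 2.20 kb at Slc2a1, 5.38 ± 0.822 kb at Aldoa, 3.63 ± 0.992 kb at Eno1, 3.23 ± 0.210 kb at Pgam1, 0.839 ± 0.887 kb at Ldha and 0.177 ± 0.116 kb at Gapdh (SD, n = 4). At Aldoa most of that length lay in peaks apart from the one over the H3K4me3 region, around the stretch chr7:133932685-133935858 that was not assigned to a gene. The Ldha libraries ran from 0.036 to 2.015 kb, and their mean was 0.447 kb without replicate 1. In this order the libraries of Slc2a1 and Aldoa did not overlap, nor did those of Pgam1 and Ldha. The steps from Aldoa to Eno1, from Eno1 to Pgam1 and from Ldha to Gapdh lay within the spread of the libraries.

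H3K27ac had no common side, with more downstream in 11 of 24 pairs, more upstream in 10 and neither in 3. It lay mostly downstream at Slc2a1, with 6.431, 5.677, 21.76 and 20.04 kb there and 0, 0, 3.564 and 3.387 kb upstream in replicates 1 to 4. At Ldha the mean was 7.84 ± 7.32 kb upstream and 0 downstream (SD, n = 4). H3K4me1 was higher downstream in 18 of 24 pairs, and 4 of the other 6 were the Ldha libraries. The windows were not centred on the regions, with 37.04 kb of window downstream and 10.99 kb upstream at Slc2a1 and 21.99 and 15.61 kb at Ldha. At Ldha the side with more H3K27ac was thus the side with less window.

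**Figure D4:**
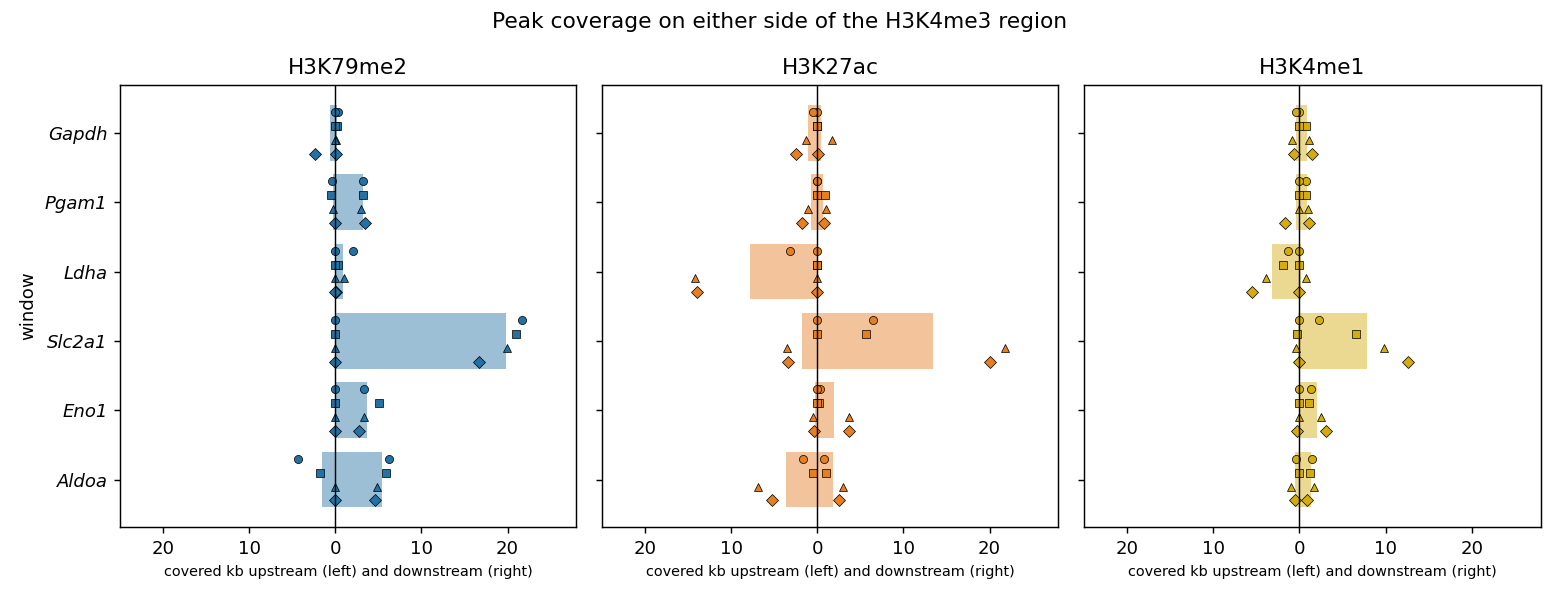
Kilobases in peaks upstream (left of 0) and downstream (right of 0) of each gene's H3K4me3 region, for H3K79me2, H3K27ac and H3K4me1, with symbols for libraries (circle, square, triangle and diamond for replicates 1 to 4) and bars for the mean of 4. H3K79me2 lies to the right at 19.9 kb for Slc2a1, and the H3K27ac bar of Ldha lies to the left at 7.84 kb.

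Overlap was measured among the 4 active marks, H3K4me3, H3K27ac, H3K4me1 and H3K79me2. Libraries of 2 marks with the same replicate number were set against each other, although no source used here says that they share a tumour. Of the H3K4me3 bases in the windows, 76.3% ± 15.9 lay in H3K79me2 peaks, compared with 43.1% ± 8.63 of H3K4me3 bases in the genome (SD, n = 4). In replicates 1 to 4 the window shares were 100%, 69%, 70.3% and 65.9%. Replicate 1 had only 2528 H3K4me3 bases in the windows, and the others had 21565 to 23172. Of the H3K79me2 bases, 47.5% ± 28.4 lay in H3K27ac peaks, compared with 17.8% ± 10.3 in the genome (SD, n = 4). The window shares were 23.1%, 22.9%, 74.0% and 70.2% in replicates 1 to 4, so this mean described no library. The genome shares were 6.6%, 11.7%, 25.2% and 27.8%. Among these marks H3K4me3 had its smallest mean overlap with H3K4me1, at 18.7% ± 7.74 in the windows and 13.0% ± 4.98 in the genome (SD, n = 4). Each of these 3 shares was higher in the windows in 4 of 4 replicate numbers.

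H3K79me2 was also the mark whose bases were most often shared by all its libraries. Of the bases in an H3K79me2 peak of any library, 58.7% in the windows and 39.1% in the genome were in all 4. The share was 75.9% at Slc2a1, 73.3% at Pgam1, 47.7% at Aldoa, 41.7% at Eno1, 40.6% at Ldha and 38.6% at Gapdh. Ldha, Eno1 and Gapdh were thus close to the genome's share, and Slc2a1 and Pgam1 stood above it. For H3K27ac the share was 7.71% in the windows and 2.41% in the genome, for H3K4me1 8.05% and 5.69%, and for H3K4me3 8.22% and 5.59%. These low shares go with the narrow peaks of some libraries, with a median width of 216 bp in H3K27ac replicate 2 and 2051 bp in replicate 3, and of 263 bp in H3K4me3 replicate 1 and 2033 bp in replicate 2. The part of peak width in the shares was not tested.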

How the data were processed

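The peak lists of 24 antibody libraries were used, 4 for each of 6 marks, and the 4 input samples were not used here. CASAVA 1.7, Bowtie, MACS and deepTools and the build mm9 are named in the submitters' processing notes, while their settings, and whether inputs served as controls, are not given in the sources used here. Each library had its own list. The score is the authors' deposited value for each peak, from 50 up to 3233.06, its scale is not stated, and it served only to order or select peaks within a list. Lists held 5224 to 96068 peaks, no 2 lists were identical, and the depth of the libraries is unknown.

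Bases in at least 1 peak were counted per window and library with Python 3.11.15, pandas 2.3.3 and numpy 2.4.6, after the code was tested on simulated data (200 of 200 sets were right). Positions count from 1. The genome share used the 2574 Mb between the first and the last peak of each chromosome, and background counts used tiles of 50 kb. The members, lists and windows were chosen with earlier results of these data known. Exact permutation tests of the covered shares were therefore run, but no p is given, and results are stated as values, spreads and counts of library pairs. By rule the text names the region covered in the most libraries and the best-scored peak of a library, with other stretches described as chosen after their values were seen. Alternatives covered a score of at least 100, the 5224 best-scored peaks of each list, merging within 1 kb, a peak lying at least 50% in the window, narrower and wider windows, equal weights, the replicate block and each library left out. Genes on mm9, including other glycolysis genes, were not analysed here. RefSeq on GRCm38.p6 gave strand, gene order and promoters only.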

Additional observations from a re-analysis of the deposited data

Results flagged for a closer look

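In 9 of 46 groups of 4 libraries, the highest or lowest library stood apart from the other 3 by more than Dixon's 95% limit. Chance gives this in about 1 in 20 groups of spread values. That rate does not apply to 9 groups in which all 4 libraries were at 0, nor to 3 in which 3 libraries were at 0 and the remaining one stands apart by construction. Of the other 34 groups, 6 had such a library, and groups that share a library are not independent. H3K4me3 replicate 1 was low at Pgam1, with 0.548% of the window covered, at Ldha, with 0.458%, at Eno1, with 0%, and over the 6 windows together, with 1.23%. Its list held 10637 peaks with a median width of 263 bp. H3K27me3 replicate 3 was high at Eno1, with 3.19% covered, and over the 6 windows, with 1.7%, and its list covered 3.98% of the genome. H3K9me3 replicate 4 was high at Slc2a1, with 1.26%, and over the 6 windows, with 0.307%, in each case because the other 3 libraries had no peak there. H3K27ac replicate 1 had a log2 ratio of window to genome coverage of 3.56, above the other 3 libraries.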

How the results depend on the processing

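Of the 36 covered percentages of a window by a mark, 0 moved by more than the spread between libraries when peaks had to lie at least 50% in the window, 1 when peaks were merged within 1 kb, 2 with scores of at least 100, 12 with the 5224 best-scored peaks of each list, 10 with windows narrowed by 5 kb and 5 with windows widened by 10 kb. With scores of at least 100, the log2 ratio of H3K4me3 minus that of H3K4me1 changed sign, to -0.0168. That difference was 0.34 with merged peaks, 0.41 in narrowed and 0.31 in widened windows, and 0.28 to 0.39 with each library left out. With the 5224 best-scored peaks, the difference from H3K27me3 fell from 22.5 to 6.2 percentage points for H3K79me2, from 20.5 to 10.1 for H3K27ac, from 9.53 to 2.27 for H3K4me1 and from 8.03 to 6.17 for H3K4me3. H3K79me2 minus H3K4me3 was 0.0322 points, H3K27me3 minus H3K9me3 was 0, and H3K79me2 minus H3K27ac on the log2 scale was -2.21. With each window weighted equally, H3K4me3 minus H3K27me3 was 9.52 points. The cause of these changes was not tested.

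With each library left out in turn, H3K4me3 minus H3K27me3 ranged from 7.10 to 10.5 points, the highest without H3K4me3 replicate 1. H3K79me2 minus H3K27me3 ranged from 21.3 to 23.5, H3K27ac minus H3K27me3 from 15.7 to 25.4 and H3K4me1 minus H3K27me3 from 7.95 to 11.1. H3K27me3 minus H3K9me3 fell to 0.016 without H3K27me3 replicate 3, from 0.418.

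No clear pairing of libraries by replicate number was found. Over 32 pairs of libraries with the same number, correlations of the deviations ran from -0.15 to 0.326, and 8 were over 0.1. In 11 of the 32 the library correlated best with its own number, where chance alone gives 1 in 4. With a replicate block, the differences kept their values by construction, at 22.5, 20.5, 9.53 and 14.5 points and 0.32 and -0.99 on the log2 scale, and the smallest p that 16 sign patterns allow is 0.125.

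The share of 50 kb tiles with a peak, in the order H3K4me3, H3K27ac, H3K4me1, H3K79me2, H3K27me3 and H3K9me3, was 19.6%, 22.6%, 24.8%, 19.7%, 12.0% and 3.67% in at least 3 libraries. It was 3.82%, 6.54%, 7.32%, 14.7%, 3.48% and 0.859% in all 4 with scores of at least 100, and 3.75%, 1.56%, 1.59%, 4.20%, 2.31% and 1.43% with the 5224 best-scored peaks. In alternatives chosen after seeing the data, H3K4me3 was in all 4 libraries at 1 window with scores of at least 100. With the 5224 best-scored peaks, H3K4me3 was in all 4 at 3 windows, H3K27ac and H3K4me1 were in all 4 at 1 window each and H3K79me2 at 0.

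Read depth is unknown, so a missing peak does not show that a mark is absent.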
